A study of Capra hircus with 25 samples.

Results

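The miR-34 family was followed in the liver of goat kids as they grew. Its entries were taken by name, as every row of the deposited miRNA table whose stem was miR-34a, miR-34b, miR-34c, miR-449a, miR-449b or miR-449c, with either arm. This gave 9 of the 463 entries in the table: miR-34a, both arms of miR-34b (chi-miR-34b-5p and chi-miR-34b-3p), both arms of miR-34c (chi-miR-34c-5p and chi-miR-34c-3p), both arms of miR-449a and both arms of miR-449b. The prefix chi- marks goat names and is left out from here on. No miR-449c entry was among the rows used here. Of these, 6 passed the filter on low values (1 RPM or more in at least 5 libraries), as did 405 entries in all. The family was chosen by its measured change with age in these same libraries, in which the RPM of miR-34b and miR-34c was already known to be lower at the later ages. Its levels and changes with age are therefore a description and are given without p-values. Where the calls of the fit over all miRNAs are counted for its entries, they are set beside the share of all miRNAs called, and nothing is read from them, kept or lost. Every entry of the name rule is accounted for.

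Small RNA values came from frozen liver of Laiwu black goat kids (Capra hircus, a meat goat breed) aged 1 day or 2, 4, 8 or 12 weeks, and there were 25 libraries, 5 for each age. The labels give no treatment, genotype or sex, and age is the only difference between the groups that they record. Whether sex, batch or anything else went with age is not stated. Nor is it stated that libraries of the same age were from separate kids, so the spread between libraries may be partly technical. Whole liver was used, and hepatocytes, bile duct cells, vessels and blood all contribute RNA to each value.

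miR-34 and miR-449 are a family of small RNAs that repress messenger RNAs for the cell cycle and cell survival. In human and mouse, miR-34a comes from a gene of its own, miR-34b and miR-34c are cut from 1 shared transcript, and p53, the transcription factor of the DNA damage response, directly induces both genes. The miR-449 hairpins lie in an intron of CDC20B, are induced by E2F1, and are known for multiciliated epithelia, where miR-34b and miR-34c are also abundant. In human and mouse, miR-34a, miR-34c-5p and the 5p strands of miR-449 carry the same seed, the stretch of bases that selects targets. In liver, miR-34a is the member most often studied, for repression of SIRT1. In the RefSeq gene table for the goat assembly ARS1.2, MIR34C and MIR34B were next to each other within the span of C15H11orf88. BTG4 was the next gene after MIR34B. MIR449C, MIR449B and MIR449A were next to each other within CDC20B, and MIR34A lay elsewhere, beside GPR157. The mature goat sequences are not used here, and p53 itself was not measured.

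Values are RPM, the reads of a miRNA scaled to a common library total, as deposited. Read numbers were recovered from the steps between low values, by which 1 read was worth 0.0838 to 0.142 RPM. By this estimate a library held 7169542 to 12096083 miRNA reads (median 9526473). For an entry without a read, counting error alone allows up to 3 reads, equal to 0.252 to 0.425 RPM. miR-122, the defining miRNA of hepatocytes, was at 168623 ± 23248 RPM at 12 weeks and 158013 ± 15465 RPM at 1 day (mean ± SD, n = 5 each), so the libraries carry the marker of their labelled tissue. The median log2 change of the 405 tested miRNAs was −0.54 at 12 weeks against 1 day, −0.41 at 8 weeks, −0.26 at 4 weeks and −0.19 at 2 weeks. With libraries rescaled by the median ratio to a common profile, those medians were −0.01, −0.05, −0.03 and 0.01. Changes are therefore given in both scalings for the comparisons with 1 day at 4, 8 and 12 weeks. At 4 weeks, replicates 1 and 2 stood apart from the other 3 libraries, with median-ratio factors of 0.921 and 0.831 against 1.16, 1.20 and 1.12, and changes and shares at that age are given with and without them.

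miR-34c-5p and miR-34a were the abundant members, at 51.7 and 50.7 RPM over all 25 libraries, which placed them 183rd and 184th of the 463 entries. miR-34b-3p averaged 12.6 RPM. The other 3 tested entries were rare, with means of 2.29 RPM for miR-34b-5p, 2.02 RPM for miR-34c-3p and 1.84 RPM for miR-449a-5p. The 3 entries that did not pass the filter were close to undetected: miR-449a-3p had 4 reads in all, in 2 libraries, miR-449b-5p had 3 reads in 3 libraries, and miR-449b-3p had 1 read. Relative to the abundant liver miRNAs all members were minor.

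miR-34c-5p, the dominant strand of its hairpin, was the member with the widest range. At 1 day its 5 libraries held 100.1, 88.3, 71.7, 54.4 and 79.1 RPM. At 2 weeks they held 56.1, 40.4, 189.5, 64.7 and 224.8 RPM, and at 4 weeks 29.7, 17.4, 55.7, 48.7 and 29.5 RPM. Replicates 3 and 5 at 2 weeks were the highest of all 25 libraries, while the other 3 lay within or below the 1-day range. At 8 weeks the values were 21.5, 21.5, 23.5, 10.4 and 10.6 RPM. At 12 weeks they were 16.4, 5.70, 10.6, 6.90 and 15.8 RPM. Every 8-week and every 12-week library lay below every 1-day library.

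As means, miR-34c-5p was at 78.7 ± 17.2 RPM at 1 day, 115 ± 85.4 RPM at 2 weeks (median 64.7 RPM), 36.2 ± 15.6 RPM at 4 weeks, 17.5 ± 6.42 RPM at 8 weeks and 11.1 ± 4.93 RPM at 12 weeks (SD, n = 5 each). On the log2(RPM + 1) scale, its change at 12 weeks against 1 day was −2.80 ± 0.40 (SE of the limma fit), which is 6.95-fold lower. With median-ratio scaling the change was −2.24. In both scalings this was the lowest change of the 405 tested miRNAs on that scale, which shrinks the changes of rarer miRNAs. The family was chosen for this fall, so nothing is read from the rank. In bulk tissue, fewer cells of a type that holds the miRNA and less miRNA per cell cannot be told apart.

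miR-34b-3p, from the hairpin that in human and mouse shares a transcript with miR-34c, had a course with age like that of miR-34c-5p. At 1 day its libraries did not follow those of miR-34c-5p, which was highest in replicate 1 and lowest in replicate 4. miR-34b-3p was at 19.9, 18.7, 23.9, 18.9 and 20.3 RPM at that age, highest in replicate 3. At 2 weeks it was at 14.4, 11.0, 38.1, 15.4 and 51.4 RPM, highest in replicates 3 and 5 as miR-34c-5p was. The 4-week libraries held 5.42, 3.99, 12.5, 8.90 and 7.29 RPM. From 4 weeks on, each library lay below each 1-day library, as at 4 weeks did those of 17% of all tested miRNAs, and the 4-week, 8-week and 12-week ranges overlapped each other. At 8 weeks it was at 5.45, 6.39, 6.61, 4.11 and 2.96 RPM, and at 12 weeks at 6.54, 1.68, 3.60, 1.15 and 6.34 RPM. Its change at 12 weeks against 1 day was −2.31 ± 0.37 (3.86 ± 2.52 RPM at 12 weeks and 20.3 ± 2.11 RPM at 1 day), or −1.80 with median-ratio scaling.

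The 2 minor strands of these hairpins lay near the limit of the depth at the later ages. miR-34b-5p was at 0.700, 0.420, 0.450, 0.420 and 0.350 RPM in the 12-week libraries (3 to 7 reads each), against 4.61, 4.05, 3.68, 2.15 and 3.23 RPM in the 1-day libraries (21 to 44 reads). Those 2 groups did not overlap. miR-34c-3p was at 0.300, 0.170, 0.450, 0.520 and 1.84 RPM at 12 weeks (2 to 16 reads), against 3.56, 2.63, 2.41, 1.84 and 3.75 RPM at 1 day (17 to 34 reads). The highest 12-week library, replicate 5, equalled the lowest 1-day library. Their changes were −1.61 ± 0.34 and −1.26 ± 0.35, and −1.28 and −0.93 with median-ratio scaling. With a pseudocount of 0.1 RPM in place of 1 RPM they were −2.67 and −2.27, and with 10 RPM −0.37 and −0.27. The change of such rare strands on the log2(RPM + 1) scale understates the change in their level. At the ages between, miR-34b-5p averaged 4.60 ± 4.25 RPM at 2 weeks, 2.00 ± 1.15 RPM at 4 weeks and 0.820 ± 0.547 RPM at 8 weeks, and miR-34c-3p averaged 5.18 ± 5.34, 0.71 ± 0.391 and 0.712 ± 0.504 RPM at the same ages.

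miR-34a, the member from a separate gene, did not share this course. Its libraries held 52.9, 51.7, 35.5, 46.2 and 49.2 RPM at 1 day. At 2 weeks they held 57.7, 42.0, 46.4, 69.8 and 78.8 RPM, and at 4 weeks 35.9, 28.8, 60.01, 73.5 and 53.9 RPM. The ranges of all 5 ages overlapped. At 8 weeks the values were 40.3, 71.9, 61.1, 36.7 and 62.1 RPM, and at 12 weeks 53.4, 44.6, 48.2, 37.0 and 31.4 RPM. The mean was 42.9 ± 8.79 RPM at 12 weeks and 47.1 ± 6.95 RPM at 1 day, a log2 change of −0.14 ± 0.23 that was not called and that turned to 0.43, also not called, with median-ratio scaling. The same entry at 8 weeks was 0.17 above 1 day on the log2 scale and not called, but was called higher with median-ratio scaling (0.58, beside 24.9% of all tested miRNAs) and with TMM scaling (0.52).

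miR-449a-5p, the miR-449 strand with reads in every library, went the other way at a far lower level. It was at 2.61, 1.43, 3.49, 1.67 and 3.11 RPM at 12 weeks (16 to 31 reads), against 0.940, 0.200, 1.56, 0.310 and 1.42 RPM at 1 day (2 to 11 reads). The groups overlapped by 1 library, since 12-week replicate 2 lay below 1-day replicate 3. At the ages between, its means were 1.61 ± 0.973 RPM at 2 weeks, 1.97 ± 1.47 RPM at 4 weeks and 2.25 ± 1.11 RPM at 8 weeks. The log2 change at 12 weeks against 1 day was 0.90 ± 0.30, or 1.87-fold on the RPM + 1 scale, and 1.23 with median-ratio scaling. It was 1.61 with a pseudocount of 0.1 RPM and 0.19 with 10 RPM, so its size rests on the pseudocount.

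**Figure D1:**
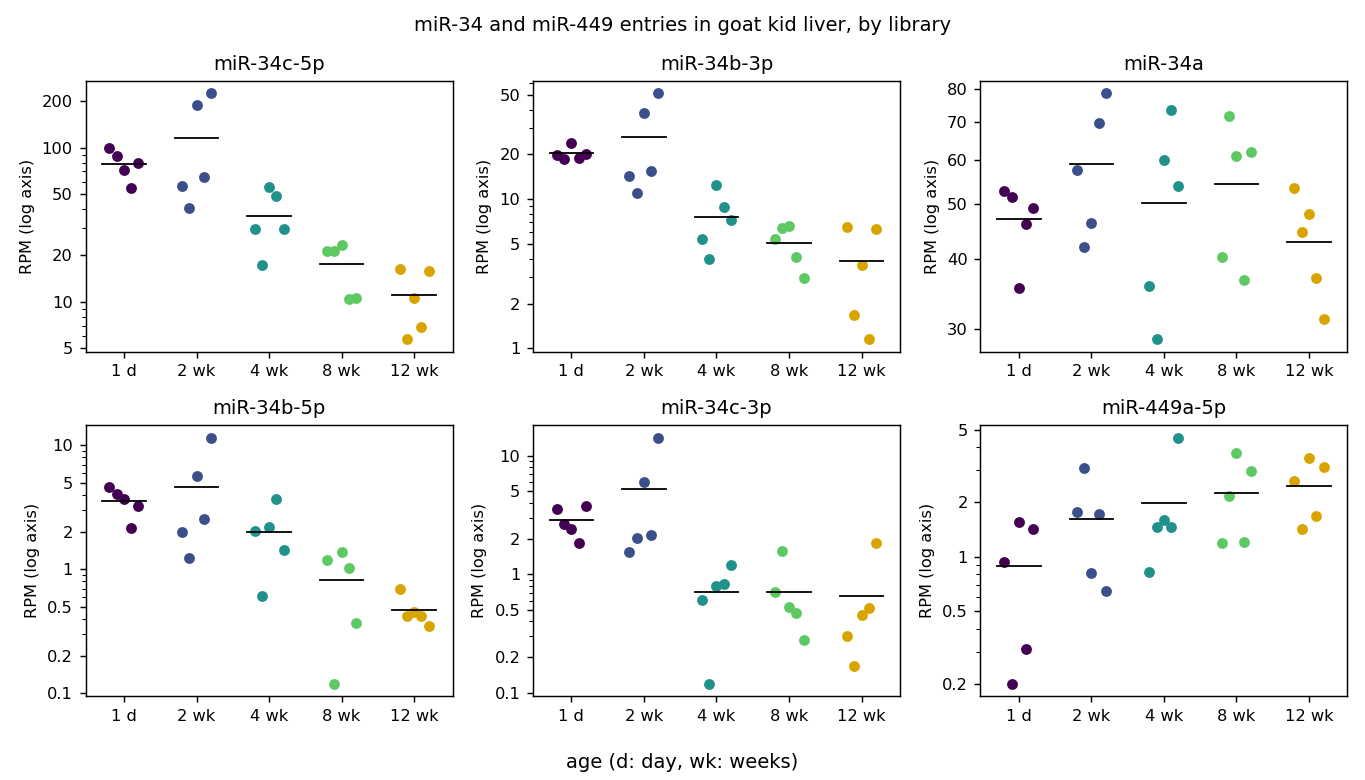
RPM of the 6 tested entries in each of the 25 libraries (points, replicates 1 to 5 from left to right) by age, on log axes that differ between panels, with the mean of each age as a bar. miR-34c-5p and miR-34b-3p were lower at 8 and 12 weeks than in any 1-day library, whereas the miR-34a libraries of all ages overlapped and miR-449a-5p was at 2.46 RPM on average at 12 weeks and 0.886 RPM at 1 day.

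With a call at a Benjamini-Hochberg adjusted p under 0.05 over all 405 miRNAs in the limma fit, the 4 miR-34b and miR-34c entries were called lower and miR-449a-5p was called higher at 12 weeks against 1 day. Calls were common at that age: 54.8% of all tested miRNAs were called lower and 11.6% higher, and with median-ratio scaling 32.8% and 28.9%. The libraries of 3 entries lay wholly below those at 1 day, as did those of 44.7% of all tested miRNAs. The call of miR-34c-3p was lost with a pseudocount of 10 RPM at 12 weeks, and likewise at 8 and 4 weeks (−0.27, −0.26 and −0.26).

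At 8 weeks against 1 day the same 4 entries were called lower and miR-449a-5p higher, beside 49.1% and 13.1% of all tested miRNAs. The log2 changes were −2.16 ± 0.40 for miR-34c-5p, −1.84 ± 0.37 for miR-34b-3p, −1.35 ± 0.34 for miR-34b-5p, −1.18 ± 0.35 for miR-34c-3p and 0.79 ± 0.30 for miR-449a-5p. With median-ratio scaling they were −1.75, −1.46, −1.06, −0.92 and 0.98 in that order. All 4 miR-34b and miR-34c entries had no overlap with 1 day, as was so in the lower direction for 34.1% of all tested miRNAs. The call of miR-449a-5p was lost without 1-day replicate 2 or 4 or 8-week replicate 3 or 5, with log2 changes of 0.63 to 0.91 over the 10 fits that each leave out 1 library. It was also lost with a pseudocount of 10 RPM (0.17), and the change was 1.42 with 0.1 RPM.

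At 4 weeks against 1 day, 3 entries were called lower, beside 28.4% of all tested miRNAs: miR-34b-3p (−1.39 ± 0.37), miR-34c-5p (−1.18 ± 0.40) and miR-34c-3p (−1.17 ± 0.35). With median-ratio scaling miR-34b-3p changed by −1.14 and miR-34c-3p by −0.99. The call of miR-34c-5p was lost with median-ratio scaling (−0.92, where 12.3% of all tested miRNAs were called lower), with TMM scaling (−0.96), without 1-day replicate 1 (−1.09) and without 4-week replicate 2 (−0.95). Without 4-week replicates 1 and 2 together none of the 6 entries was called, with −1.04 for miR-34b-3p, −0.82 for miR-34c-5p and −0.96 for miR-34c-3p, and 87 miRNAs were called in all against 149 with them. The 3 remaining 4-week libraries averaged 44.6 ± 13.5 RPM of miR-34c-5p and 9.56 ± 2.66 RPM of miR-34b-3p. miR-34b-5p (−0.66), miR-449a-5p (0.61) and miR-34a (0.03) were not called at 4 weeks. With median-ratio scaling they changed by −0.47, 0.70 and 0.29 in that order, also not called. Without 4-week replicates 1 and 2 they changed by −0.43, 0.87 and 0.40.

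At 2 weeks against 1 day no entry was called, beside 5.68% of all tested miRNAs. The log2 changes were 0.24 ± 0.40 for miR-34c-5p and 0.10 ± 0.37 for miR-34b-3p, with the 5 libraries of that age far apart. Leaving out 1 library at a time moved miR-34c-5p between −0.08 and 0.53 and miR-34b-3p between −0.20 and 0.33, so the direction at 2 weeks rested on single libraries.

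Between neighbouring ages, only the step at 4 weeks against 2 weeks held calls in the family: miR-34c-3p (−1.53 ± 0.35), miR-34b-3p (−1.49 ± 0.37) and miR-34c-5p (−1.42 ± 0.40) were called lower, beside 1.73% of all tested miRNAs. Of the 10 fits that each left out 1 library of these ages, 9, 6 and 4 kept the calls of these 3 entries in that order. All 3 calls were lost when 4-week replicates 1 and 2 were left out (−1.32, −1.14 and −1.06), with 22 miRNAs called in all against 12 with them. They were lost too when only the 2 ages were fitted, where the changes were the same but no miRNA at all was called by limma (55 at an unadjusted p under 0.05). That of miR-34c-5p was also lost with no filter and with a pseudocount of 0.1 RPM. No entry was called at 8 weeks against 4 weeks or at 12 weeks against 8 weeks, beside 6.91% and 1.23% of all tested miRNAs, and miR-34c-5p had log2 changes of −0.98 ± 0.40 and −0.64 ± 0.40 in these steps. Those shares themselves depended on single libraries: 7 to 86 miRNAs were called at 8 weeks against 4 weeks (28 with all libraries), and 2 to 15 at 12 weeks against 8 weeks (5 with all libraries), when 1 library was left out. The extremes were 7 without 4-week replicate 3 and 86 without 4-week replicate 2 in the first step, and 2 without 12-week replicate 2 and 15 without 8-week replicate 1 in the second. With only the 2 ages fitted, 3 were called in each step. Without 4-week replicates 1 and 2, miR-34c-5p was called lower at 8 weeks against 4 weeks (−1.34), and 114 miRNAs were called in all against 28 with them.

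**Figure D2:**
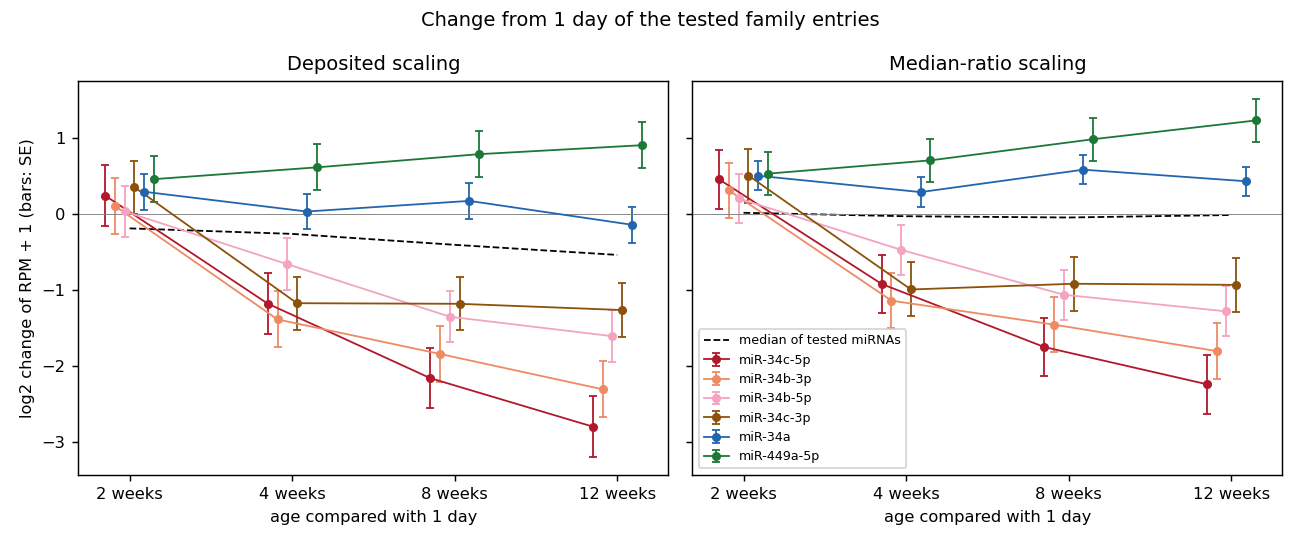
Change in log2(RPM + 1) from 1 day at 2, 4, 8 and 12 weeks for the 6 tested entries (points with SE bars from the limma fit) and the median of 405 miRNAs (dashed), with the deposited scaling on the left and median-ratio scaling on the right. In both panels the 4 miR-34b and miR-34c entries lie below the median from 4 weeks on, miR-34c-5p reaching −2.80 and −2.24 at 12 weeks, and miR-449a-5p lies above 0.

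Among miR-34a and the 5p entries, the shares differed with age. The 3p entries, among them miR-34b-3p, the abundant strand of its hairpin, are left out of these sums and shares. miR-34a and the 4 5p entries summed to 130 ± 22.7 RPM at 1 day, 180 ± 95.7 RPM at 2 weeks, 90.6 ± 33.4 RPM at 4 weeks, 75 ± 18.8 RPM at 8 weeks and 56.9 ± 10.9 RPM at 12 weeks. miR-34c-5p held 60.1 ± 4.4% of that sum at 1 day, 58.1 ± 15.4% at 2 weeks, 39.5 ± 5.48% at 4 weeks, 23.4 ± 7.15% at 8 weeks and 19.3 ± 7.84% at 12 weeks. miR-34a held 36.5 ± 5.09%, 38.4 ± 15.1%, 56.0 ± 4.51%, 72.4 ± 7.16% and 75.5 ± 8.85% at the same ages. miR-34a led in every library at 4, 8 and 12 weeks and miR-34c-5p in every library at 1 day. Without 4-week replicates 1 and 2, the 4-week sum was 112 ± 20.1 RPM and the shares 39.3 ± 6.82% for miR-34c-5p and 56.1 ± 5.24% for miR-34a (n = 3). The share of miR-449a-5p was 4.33% at 12 weeks and 0.698% at 1 day. Shares are unaffected by the scaling of the libraries.

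Within a library, miR-34c-5p was 0.269 ± 0.146 times as abundant as miR-34a at 12 weeks and 1.68 ± 0.323 times as abundant at 1 day. The highest 12-week ratio (0.504) lay below the lowest 1-day ratio (1.18). The ratio was 0.715 ± 0.159 at 4 weeks (0.713 ± 0.195 without replicates 1 and 2) and 0.334 ± 0.134 at 8 weeks. At 2 weeks it was between 0.927 and 4.08, so that at this age miR-34c-5p led in some libraries and miR-34a in others. The fall of miR-34c-5p is part of this ratio, which is given without a test.

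**Figure D3:**
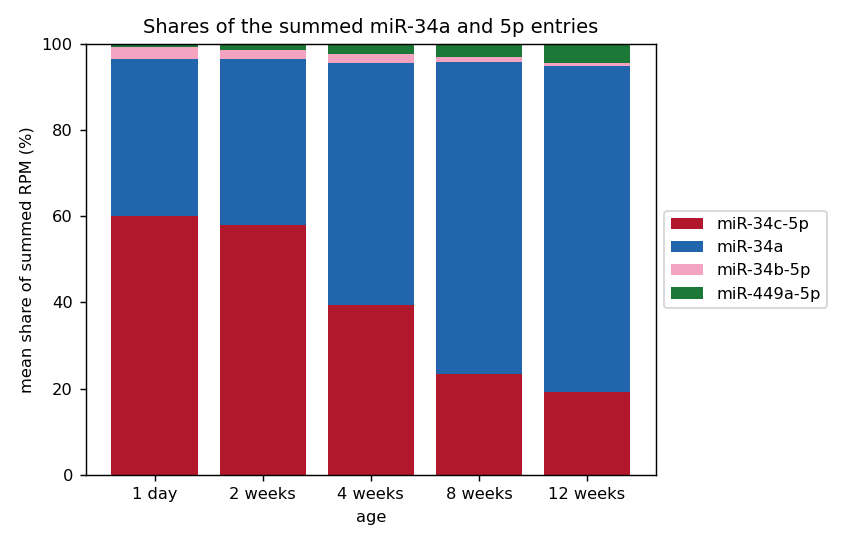
Mean share of each entry in the summed RPM of miR-34a and the 5p entries (stacked bars, percent) at each age, 5 libraries per age. miR-34c-5p held 19.3% at 12 weeks and 60.1% at 1 day, miR-34a held 75.5% at 12 weeks and 36.5% at 1 day, and miR-449b-5p is too rare to be drawn.

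The 4 miR-34b and miR-34c entries moved largely together across the libraries, although at 1 day miR-34b-3p did not follow the order of miR-34c-5p. Over the 25 libraries, log2 values of miR-34c-5p and miR-34b-3p had a Pearson correlation of 0.97, and 0.93 when each value was taken as its deviation from the mean of its age. For miR-34c-5p with miR-34b-5p the values were 0.92 and 0.77, and with miR-34c-3p they were 0.86 and 0.78. miR-34a followed less closely, with 0.37 and 0.43, and miR-449a-5p had −0.50 and −0.17. These are descriptions, since entries of a library share its depth and scaling. With median-ratio scaling the deviations of miR-34c-5p and miR-34b-3p still correlated at 0.92.

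**Figure D4:**
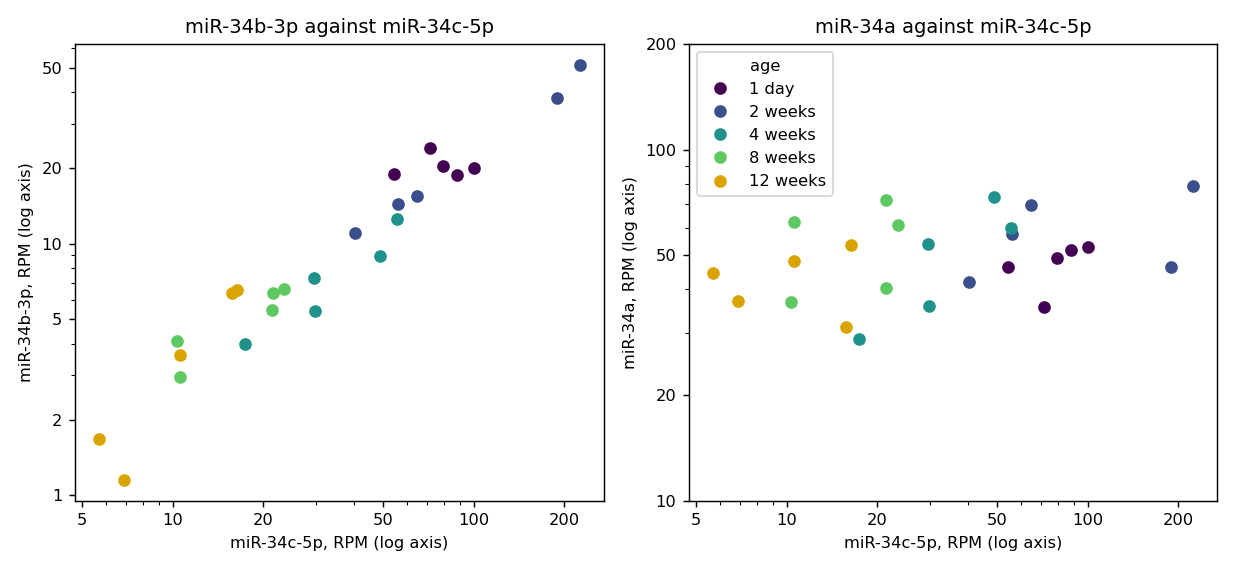
miR-34b-3p (left) and miR-34a (right) against miR-34c-5p in RPM on log axes, 1 point per library, coloured by age. miR-34b-3p and miR-34c-5p lie along 1 line over all ages (r = 0.97) with 2-week replicates 3 and 5 at the top, while miR-34a lies between 28.8 and 78.8 RPM over the whole range of miR-34c-5p (r = 0.37).

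The shared deviations were widest at 2 weeks. Within ages, the SD of log2 values was 0.70 for miR-34c-5p and 0.64 for miR-34b-3p, 14th and 15th of the 405 tested miRNAs, against a median of 0.32 and against 0.39 for miR-34a. At 2 weeks alone it was 1.1 for miR-34c-5p, 8th of 405, against a median of 0.29. All 4 miR-34b and miR-34c entries had their highest values at that age in replicate 5 and their next highest in replicate 3. miR-34c-3p, for one, held 1.55, 2.03, 6, 2.13 and 14.2 RPM, and miR-34b-5p 1.99, 1.23, 5.66, 2.54 and 11.6 RPM. miR-449a-5p was lowest in these same 2 libraries, at 0.810 and 0.650 RPM, against 1.72 to 3.09 RPM in the other 3.

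Markers of other cell types differed between these 2-week libraries as well. The summed RPM of the erythroid entries (miR-451-5p and both arms of miR-144) was 2393, 3556, 1225, 3160 and 1148 in replicates 1 to 5, lowest where miR-34c-5p was highest, and was 1637 ± 320 at 1 day. The biliary entries (miR-200a, miR-200b, miR-200c, miR-141 and miR-429) summed to 1282, 1384, 1152, 1826 and 1788 RPM in the same order, and did not follow miR-34c-5p. The leukocyte entries (miR-223-3p, miR-155-5p and miR-150) summed to 428, 651, 380, 506 and 408 RPM in that order, also lowest in replicates 3 and 5. In these libraries the hepatocyte, mesenchymal and endothelial sums were neither both lowest nor both highest. The part of any of these cell types in the miR-34 values was not tested.

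Across ages, the biliary entries summed to 1332 ± 179 RPM at 12 weeks (1103 to 1597) and 2092 ± 649 RPM at 1 day (1387 to 3074). miR-200a was called lower, at 517 ± 42.7 RPM at 12 weeks and 903 ± 216 RPM at 1 day (limma adjusted p = 0.00129), and so was miR-429, and the other 3 of 5 were not. With median-ratio scaling none of the 5 was called. Shares of all tested miRNAs called at this age were 54.8% lower and 11.6% higher, or 32.8% and 28.9% with median-ratio scaling. The hepatocyte entries had 1 of 5 called higher and none lower, or 5 higher with median-ratio scaling, and summed to 277718 ± 17571 RPM at 12 weeks (258256 to 302234) and 261952 ± 16020 RPM at 1 day (240434 to 278610). None of the 5 mesenchymal entries was called, 1 of 3 leukocyte entries was called higher (miR-150), and both arms of endothelial miR-126 were called lower. With median-ratio scaling 1 mesenchymal entry, all 3 leukocyte entries and miR-126-3p were called higher and no entry of these lists lower. The erythroid entries had miR-451-5p called higher and miR-144-5p lower (with median-ratio scaling only the first), and summed to 3362 ± 637 RPM at 12 weeks (2732 to 4371). No marker entry was at 0 in any library, and the part of cell makeup in the miR-34 values was not tested.

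Whether the hairpins changed in the proportion of their strands was examined from the ratio of the arms within a library. The ratio is built from entries whose fall with age was known when the family was chosen, so it is not independent of that choice. With a pseudocount, a fall of both strands to low values can move the ratio by itself. miR-34c gave mostly its 5p strand and miR-34b mostly its 3p strand at every age. From summed RPM, miR-34c-5p outnumbered miR-34c-3p by 27.7 times at 1 day, 22.2 times at 2 weeks, 51.0 times at 4 weeks, 24.5 times at 8 weeks and 16.9 times at 12 weeks. These rest on 3476, 4973, 1639, 805 and 528 reads of the 5p strand and on 124, 219, 32, 32 and 30 reads of the 3p strand. miR-34b-3p outnumbered miR-34b-5p by 5.74, 5.67, 3.82, 6.22 and 8.25 times at the same ages, on 156, 195, 92, 39 and 23 reads of the 5p strand. Without 4-week replicates 1 and 2 the 4-week values were 47.5 and 3.91 times.

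At 12 weeks against 1 day, the log2 ratio of 5p to 3p changed by −1.53 ± 0.26 for miR-34c (limma over 141 hairpins with both arms tested, adjusted p = 9.82e-05) and by 0.70 ± 0.30 for miR-34b (adjusted p = 0.104). Of the 141 hairpins, 22% were called, and 17% with a pseudocount of 0.1 RPM. The miR-34c call rested on the pseudocount of 1 RPM, which weighs heavily on a strand of 2 to 16 reads per library. With 0.1 RPM the change was −0.64 ± 0.38 (adjusted p = 0.279), and for miR-34b it was −0.01 ± 0.48 (adjusted p = 0.990). The miR-34c ratio was also called at 8 weeks against 1 day (−0.98, limma adjusted p = 0.00985) and at 8 weeks against 4 weeks (−0.97, adjusted p = 0.0212). Beside these calls, 20 to 29 and 3 to 14 of the 141 hairpins were called when 1 library was left out. Neither miR-34c call was kept with 0.1 RPM (−0.23 and −1.05, limma adjusted p = 0.796 and 0.123). At this depth, a change in the strand proportion of either hairpin was thus not shown apart from the choice of pseudocount. The other hairpins with the lowest changes were miR-335 (−1.78) and miR-29b (−1.28), and those with the highest were miR-26a (1.01), let-7a (0.94) and miR-98 (0.85), and these 5 kept their calls with 0.1 RPM.

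**Figure D5:**
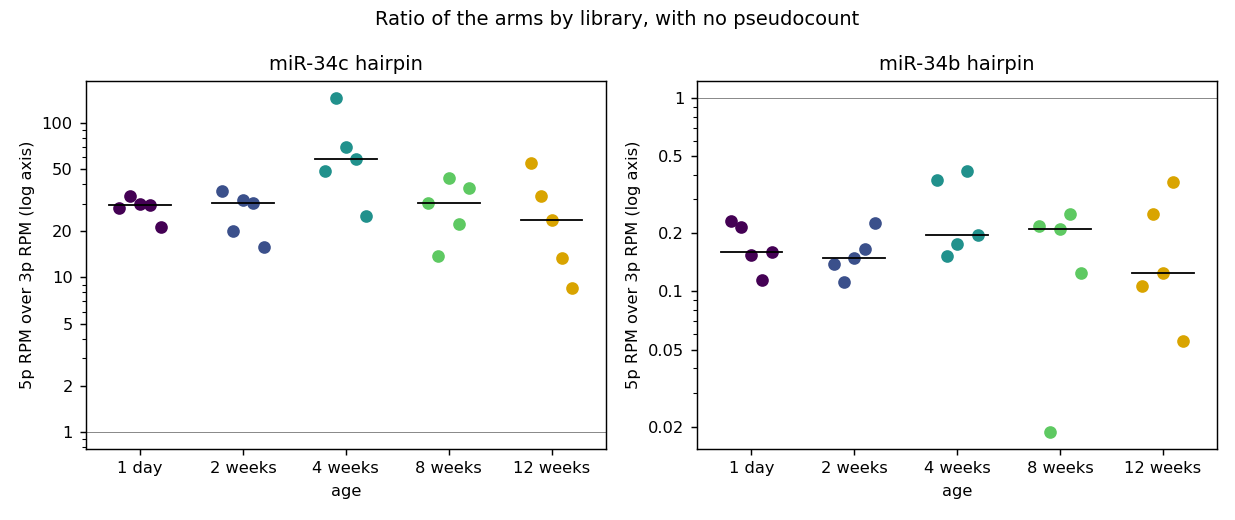
Ratio of 5p to 3p RPM in each library for the miR-34c hairpin (left) and the miR-34b hairpin (right), with no pseudocount, on log axes, with bars at the median of each age and a grey line at equal strands. The median was 23.5 at 12 weeks and 29.6 at 1 day for miR-34c and 0.125 and 0.159 for miR-34b, and the libraries spread more at the later ages, where the rarer strand had few reads.

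The proportion between the 2 hairpins was compared in the same way at 12 weeks against 1 day, with an exact two-sided permutation test over all arrangements of the 10 libraries, for which the smallest possible p is 0.00794. The log2 ratio of miR-34c-5p to miR-34b-5p averaged 2.94 ± 0.58 at 12 weeks and 4.13 ± 0.11 at 1 day, a difference of −1.19 (exact permutation p = 0.00794, adjusted over 2 ratios 0.0159). The ratio of miR-34c-3p to miR-34b-3p averaged −1.45 ± 0.74 at 12 weeks and −2.5 ± 0.33 at 1 day, a difference of 1.04 in the opposite direction (exact permutation p = 0.0317, adjusted 0.0317). Each ratio sets an abundant strand against a rare one. With a pseudocount of 0.1 RPM the differences were −0.24 and 0.38 (exact permutation, adjusted p = 0.540 for both). The ratio of the abundant strands, miR-34c-5p to miR-34b-3p, was added after the values were seen. It averaged 1.39 ± 0.28 at 12 weeks and 1.88 ± 0.36 at 1 day, a difference of −0.49 (exact permutation p = 0.0556), and −0.26 with 0.1 RPM. Without a pseudocount, miR-34c-5p was 3.47 ± 1.46 times as abundant as miR-34b-3p at 12 weeks and 3.90 ± 0.972 times at 1 day. At these read numbers the proportion of the hairpins could not be shown to differ between the ages.

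The miRNAs whose pattern was most like that of miR-34c-5p were ranked by Pearson correlation of log2(RPM + 1) over the 25 libraries, among 272 other tested miRNAs with a mean of at least 10 RPM. These were miR-450-5p (0.88), miR-660 (0.88), miR-542-5p (0.87), miR-450-3p (0.87) and miR-1839 (0.86). miR-450-5p was at 584 RPM at 12 weeks and 2514 RPM at 1 day, and miR-542-5p at 4.55 and 20.2 RPM. For miR-34b-3p they were miR-500-3p, miR-542-5p and miR-532-5p (0.85 each), miR-660 and miR-1839 (0.84 each). All of these were lower on average at 12 weeks than at 1 day, a difference that enters the correlation. The correlation of miR-1839 with miR-34c-5p was 0.59 with median-ratio scaling.

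With the age means removed, the most alike were oar-miR-152 (0.77), miR-1839 (0.68) and miR-30c-5p (0.65) for miR-34c-5p, and miR-1839 (0.69), miR-30c-5p (0.66) and miR-1343 (0.64) for miR-34b-3p. None of these came near the correlation of 0.93 that miR-34c-5p and miR-34b-3p had with each other. oar-miR-152 carries a sheep name, and its level is uncertain where goat entries of near-identical sequence could share its reads.

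Other miRNAs that p53 is reported to raise in human and mouse cells, by transcription or by faster processing, were counted from the same fit. The part of p53 in their values or in those of miR-34 was not tested. Of 19 tested entries of that list (miR-192, miR-194, miR-215, miR-143, miR-145, miR-107, miR-200c, miR-141, miR-15a, miR-16 and miR-22), 5 were called higher at 12 weeks against 1 day, 2 lower and 12 neither, beside 11.6% higher and 54.8% lower of all tested miRNAs. The median log2 change of the list was 0.14, against −0.54 over all tested miRNAs. miR-16a-5p, a repressor of cyclins, was at 13774 ± 921 RPM at 12 weeks and 7554 ± 391 RPM at 1 day (limma adjusted p = 3.69e-07). miR-22-3p was at 14248 ± 1537 RPM at 12 weeks and 12073 ± 985 RPM at 1 day (adjusted p = 0.0456).

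Of the most abundant entries, 3 were not called with the deposited scaling. miR-143-3p, a smooth muscle and stromal miRNA, was at 106486 ± 12866 RPM at 12 weeks and 117774 ± 10552 RPM at 1 day (limma adjusted p = 0.490). miR-194 and miR-192-5p, which hepatocytes hold in abundance, were at 43138 ± 2736 and 13338 ± 1313 RPM at 12 weeks and at 43433 ± 1432 and 13061 ± 556 RPM at 1 day (adjusted p = 0.918 and 0.859), but both were called higher with median-ratio scaling (0.57 and 0.61, adjusted p = 5.58e-05 and 6.09e-05). oar-miR-194 was called higher, at 3449 ± 97.5 RPM at 12 weeks and 2010 ± 94.8 RPM at 1 day (adjusted p = 1.35e-05), but may divide reads with goat miR-194. The entries called lower were miR-143-5p and miR-16b-3p. With median-ratio scaling 13 of the 19 were called higher and none lower, beside 28.9% and 32.8% of all tested miRNAs, with a median of 0.67 against −0.01 over all tested miRNAs. The split of calls in this list thus depended on the scaling, while the list's median stayed above that of all tested miRNAs. The list counts arms and sheep-named entries separately and was not matched in abundance to all tested miRNAs. The list shares members with the cell type lists, so their results are not separate. These are miR-194, oar-miR-194 and miR-192-5p (hepatocyte), miR-143-3p and miR-145-5p (mesenchymal), and miR-200c and miR-141 (biliary).

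Of 8 tested entries of miRNAs reported to repress the p53 messenger RNA in human cells (miR-125b, miR-25, miR-30d, miR-504 and miR-380-5p), 3 were called lower at 12 weeks and none higher, beside 54.8% and 11.6% of all tested miRNAs. Their median log2 change was −0.24, against −0.54 over all tested miRNAs. miR-125b-5p was at 2886 ± 291 RPM at 12 weeks and 3424 ± 341 RPM at 1 day (limma adjusted p = 0.111). miR-25-3p was called lower, at 2015 ± 137 RPM at 12 weeks and 2379 ± 256 RPM at 1 day (adjusted p = 0.0330), but was called higher with median-ratio scaling (0.35, adjusted p = 0.00738). The other entries called lower, miR-504 and miR-380-5p, were rare, at 2.85 ± 0.713 and 0.680 ± 0.263 RPM at 12 weeks and at 7.58 ± 1.54 and 2.04 ± 0.496 RPM at 1 day. With median-ratio scaling 3 of the 8 were called higher and 1, miR-380-5p, lower, beside 28.9% and 32.8% of all tested miRNAs.

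At 8 weeks against 1 day, 6 entries of the p53-induced list were called higher and 1 lower, and 1 of the p53-repressing list was called lower, beside 13.1% higher and 49.1% lower of all tested miRNAs. With median-ratio scaling, 10 of the p53-induced list and 1 of the p53-repressing list were called higher at 8 weeks and none lower. Of all 405 tested miRNAs, 24.9% were called higher in that setting, and 207 were called in either direction. At 4 weeks 2 entries of the p53-induced list were called higher, and no other entry of either list was called. Beside them, 8.4% of all tested miRNAs were called higher and 28.4% lower. Without 4-week replicates 1 and 2, a count added after the values were seen, the p53-induced list had 5 called higher and 1 lower, and the p53-repressing list none, beside 37 higher and 50 lower of all tested miRNAs. With median-ratio scaling 7 of the p53-induced list and 1 of the p53-repressing list were called higher at 4 weeks, beside 18% of all tested miRNAs. At 2 weeks no entry of either list was called with the deposited scaling, and 3 of the p53-induced list were called higher with median-ratio scaling, beside 5.43% of all tested miRNAs.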

How the data were processed

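Liver miRNA values were deposited as 1 table for the series, with 1 column per library. No header or label names the unit, and it was read from the values as RPM (reads scaled to a common library total): the deposited columns summed to 1010981 to 1018216 RPM, and 100% of low values were whole multiples of 1 read within 0.1 read. Per the labels' protocols, RNA was taken with Trizol and 5 ug of total RNA entered each library. The submitters' processing notes name Bowtie 1.1.1. Not given in the sources used here are the trimming, the build and annotation used for mapping, and how a read matching more than 1 miRNA was counted. Of the entries, 434 carry goat names and 29 sheep names.

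Groups were taken from the age in the labels. Values were taken as log2(RPM + 1) for the 405 miRNAs that reached 1 RPM in 5 libraries or more (58 left out). limma 3.58.1 in R 4.3.3, with a mean-dependent trend, was fitted jointly to the 25 libraries, each age having its own mean, with Benjamini-Hochberg adjustment within each comparison and a threshold of 0.05. Ratios of arms were fitted in the same way, and ratios between hairpins were tested by exact permutation in Python 3.11.15 with numpy 2.4.6. The scripts were tested on simulated data. The design had named a count test should the table hold raw counts. It holds RPM, so the test for normalized values was used. No 2 libraries of an age were alike within sampling noise (lowest chi-square per degree of freedom 45.6, scipy 1.17.1), and all were used as separate samples.

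The family, the lists and the tests were chosen with earlier results of these data known. The miRNAs named are every family entry, the 5 most correlated with miR-34c-5p and with miR-34b-3p over the libraries and the 3 most correlated with each in deviations from age means, up to 6 most abundant members of each p53 list and 2 of each cell type list, and the 3 hairpins with the largest called arm changes in each direction. Others named in the lists because their call is counted were chosen after their values were seen. Alternatives were median-ratio and TMM scaling, no filter, a filter on a mean of 10 RPM, other pseudocounts (0.1 and 10 RPM), only the 2 ages compared, a replicate block, leaving out each library, and leaving out 4-week replicates 1 and 2.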

Additional observations from a re-analysis of the deposited data

Results flagged for a closer look

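Among 60 groups of 5 libraries examined, 5 held a library far from the others, where the gap to the nearest library exceeded 0.71 of the group's range. Chance flags about 1 in 20 groups, and no cause was tested.

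At 12 weeks, miR-34b-5p was at 0.700 RPM in replicate 1 and at 0.350 to 0.450 RPM in the other 4 libraries, a difference of a few reads. At the same age miR-34c-3p was at 1.84 RPM in replicate 5 and at 0.170 to 0.520 RPM in the others. miR-449a-5p at 4 weeks was at 4.54 RPM in replicate 5 and at 0.820 to 1.60 RPM in the others. The ratio of miR-34c-5p to miR-34b-5p at 8 weeks was 179 in replicate 2, where miR-34b-5p had 1 read, and 10.1 to 28.7 in the others. The ratio of miR-34c-5p to miR-34b-3p at 12 weeks was 6 in replicate 4 and 2.49 to 3.39 in the others.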

How the results depend on the processing

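At 12 weeks against 1 day, the log2 changes of miR-34c-5p and miR-34b-3p, for which the family was chosen, were −2.96 to −2.61 and −2.51 to −2.06 when 1 library was left out, and −2.08 and −1.15 with a pseudocount of 10 RPM, which by its size shrinks low values. The count of all miRNAs called was 257 to 269 at 12 weeks, 223 to 246 at 8 weeks and 109 to 163 at 4 weeks with 1 library left out, and 87 (149 with all libraries) at 4 weeks without 4-week replicates 1 and 2. A mean of at least 10 RPM leaves no value for miR-34b-5p, miR-34c-3p and miR-449a-5p or for the arm ratios of both hairpins. DESeq2 and edgeR on recovered reads were not run.

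The strand ratios followed the pseudocount. The arm ratio of miR-34c at 12 weeks was −0.64 and not called with 0.1 RPM (−1.76 to −1.42 with 1 library left out). That of miR-34b was 0.78 and called with 10 RPM, and 0.46 to 0.92 with 1 library left out, called without 12-week replicate 1 or 5. At 4 against 2 weeks the arm ratio of miR-34c was 0.11, and turned to −0.78 with 10 RPM. With 0.1 RPM the ratios of miR-34c-5p to miR-34b-5p and of miR-34c-3p to miR-34b-3p differed by −0.24 and 0.38 and were not called. With 1 library left out they were −1.36 to −1.01 and 0.80 to 1.31, the second not called without 12-week replicate 4 or 1-day replicate 3 or 4. The ratio of miR-34c-5p to miR-34b-3p was −0.94 and past the threshold with 10 RPM, and −0.61 to −0.39 with 1 library left out, past it without 12-week replicate 4.

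In the p53-induced list, 13 entries were called higher with median-ratio and 12 with TMM scaling (4 to 6 with 1 library left out), and 0 lower with either scaling, with no filter and with 10 RPM (0 to 1 with 1 library left out, against 2 with all). In the p53-repressing list, 3 and 2 were called higher with median-ratio and TMM scaling (0 with each library left out), and 1 lower with median-ratio scaling or a mean of at least 10 RPM (2 to 4 with 1 library left out). The cause of these moves was not tested.

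The libraries of an age share numbers with those of other ages, and what the numbers stand for is not stated. Deviations of same-numbered libraries correlated at −0.36 to 0.33 over 20 pairs, 4 of them over 0.1. These values gave no consistent sign of pairing, but weak correlations cannot exclude it. With the replicate block the changes of miR-34c-5p and miR-34b-3p stayed at −2.80 and −2.31, and 267 miRNAs were called at 12 weeks.

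Depth limits the rare strands most, since miR-34b-5p and miR-34c-3p had 2 to 16 reads in a 12-week library.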
